A study of Mus musculus with 15 samples.

Results

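The collagen genes encode the chains of the most abundant structural proteins of the extracellular matrix, and 39 of them had values among the 16401 named genes measured here. They were chosen by symbol, as every gene whose name on the array's annotation is Col, a number, the letter a and a number, with Col11a2 left out, and each is represented by its brightest probe. Expression was measured in hippocampus of adult female mice on 15 single-colour arrays. Of these, 5 came from sedentary SAMR1 mice, 5 from sedentary SAMP8 mice and 5 from exercised SAMP8 mice. SAMP8 mice age early and lose memory early, and SAMR1 mice, a related line that resists senescence, serve as their control. The labels name no transgene, drug or further allele for either line, and give neither the age nor the kind or length of the exercise. No exercised SAMR1 group is among the samples. The 5 arrays of a group are numbered as biological replicates without a statement that each came from 1 animal. A p-value here therefore sets a group difference only against the scatter of these samples, which may in part be technical.

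Each collagen chain carries a long repeat of glycine followed by a pair of other residues, and 3 such chains wind into a triple helix. Fibrillar collagens (types I, II, III, V, XI, XXIV and XXVII) assemble into the banded fibrils of connective tissue, which in the brain lie mainly in the meninges and around larger vessels. Basement membrane collagens, led by type IV, form the sheet on which endothelial cells and astrocyte endfeet rest along every brain capillary. Fibril-associated collagens decorate the fibrils, type VI forms beaded filaments, types VIII and X form networks of short chains, and the transmembrane collagens sit in cell membranes. By these roles the 39 genes fell into 10 fibrillar, 8 basement membrane, 8 fibril-associated, 8 beaded-filament or short-chain network and 5 transmembrane or anchoring collagens, type VII being the anchoring one.

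The levels of 11 neuronal marker genes of the hippocampus were read, among them Prox1 and Camk2a. No other tissue was measured, so these markers cannot tell hippocampus from neighbouring brain tissue. None of their values lay at the floor under low intensities, and their mean log2 intensity was 12.82 in sedentary SAMR1, 12.82 in sedentary SAMP8 and 12.99 in exercised SAMP8. Array medians were nearly equal, from 207.75 to 208.67 intensity units, and the median standard error of a difference between groups was 0.12 on the log2 scale. The number of arrays limits the precision. In bulk tissue, fewer cells of a type and less RNA per cell cannot be told apart.

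Type I and type III collagen set the main result, and the promoters of Col1a2 and Col3a1 are shown because both genes were higher in sedentary SAMP8. The windows run from 250 bases before to 50 after the annotated start in RefSeq (GRCm38.p6), on the plus strand, at chr6:4505368-4505667 for Col1a2 and chr1:45311288-45311587 for Col3a1. Capitals mark the letters CCAAT, or their reverse complement ATTGG, in Col1a2 and TATAAA in Col3a1.
Col1a2: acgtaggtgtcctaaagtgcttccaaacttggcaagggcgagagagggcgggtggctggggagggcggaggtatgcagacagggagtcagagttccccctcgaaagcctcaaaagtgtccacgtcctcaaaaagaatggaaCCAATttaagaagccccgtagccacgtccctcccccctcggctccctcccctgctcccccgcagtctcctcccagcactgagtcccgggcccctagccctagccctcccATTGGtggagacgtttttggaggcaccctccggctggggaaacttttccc
Col3a1: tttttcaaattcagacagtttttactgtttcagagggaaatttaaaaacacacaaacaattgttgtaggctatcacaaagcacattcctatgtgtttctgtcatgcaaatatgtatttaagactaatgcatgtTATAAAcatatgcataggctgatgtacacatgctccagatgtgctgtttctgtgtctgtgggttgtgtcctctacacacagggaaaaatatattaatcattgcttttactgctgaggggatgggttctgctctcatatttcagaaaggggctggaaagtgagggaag
The first CCAAT of Col1a2 began 109 bases before the start and the reversed copy began at the start itself. The TATAAA of Col3a1 began 117 bases before the start. A window in that RefSeq annotation was found for 31 of the 39 collagens, Col1a1 being among the 8 without one, 34 windows in all. CCAAT stood on either strand in 13 of these windows and TATAAA in 4, while 37.4% and 13.6% of the 32851 windows of that length over all genes held them. The motifs do not overlap each other in these windows, and a match of letters is a description only.

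In sedentary SAMP8, 3 of the 39 collagens were higher than in sedentary SAMR1, none was lower and 36 did not pass. Those 3 were the type I chains Col1a1 and Col1a2 and the type III chain Col3a1, all fibrillar, and the differences ran from 1.99-fold to 2.56-fold. Over all genes 1.46% were called higher and 2.63% were called in either direction (limma, Benjamini-Hochberg adjusted p under 0.05 over the 16401 genes). Called or not, 26 of the 39 differences were above 0 and 13 below, with a median log2 difference of 0.19 against 0.00 over all genes, where 51% were above 0. At an unadjusted p under 0.05 stood 12 of the 39 collagens, against 11.2% of all genes.

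Col1a1 encodes the alpha-1 chain, of which each type I molecule holds a pair. Its log2 intensity in SAMR1, replicates 1 to 5, was 7.84, 7.95, 8.998, 8.96 and 8.19. In sedentary SAMP8 it was 9.61, 9.66, 10.14, 9.81 and 9.49. All 5 SAMP8 arrays lay above all 5 SAMR1 arrays, and SAMR1 replicates 3 and 4 stood above the other SAMR1 arrays. The means were 9.74 ± 0.25 and 8.39 ± 0.56 (SD, n = 5 each), a 2.56-fold difference (log2 difference 1.35 ± 0.23, SE, limma adjusted p = 0.00176). The gene had 11 probes with values, all higher in SAMP8, with log2 differences from 0.77 to 1.35, so the probe used gave the largest of them. With the mean of all its probes the log2 difference was 1.17 (adjusted p = 0.00277).

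Col1a2 encodes the alpha-2 chain that completes the type I molecule. Its values were 9.74, 9.95, 10.94, 10.50 and 9.96 in SAMR1 and 11.17, 11.23, 11.85, 10.95 and 10.85 in sedentary SAMP8. The groups overlapped by SAMR1 replicate 3, which lay above SAMP8 replicate 5. The difference was 1.99-fold (log2 0.99 ± 0.23, limma adjusted p = 0.027). This call ended when array 1, 2 or 5 of SAMR1, or array 1, 2 or 3 of sedentary SAMP8, was left out (adjusted p at most 0.0868). It also ended in a fit of the compared groups alone (0.0562) and when the floor was raised to the 20th percentile (0.0627).

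Col3a1 encodes the single chain of type III collagen, which accompanies type I in vessel walls and loose connective tissue. Its values were 6.64, 6.57, 7.74, 7.46 and 6.56 in SAMR1 and 8.42, 8.20, 8.86, 8.42 and 7.82 in sedentary SAMP8. The lowest SAMP8 array lay above the highest SAMR1 array, and again SAMR1 replicates 3 and 4 stood above the other SAMR1 arrays. The difference was 2.55-fold (log2 1.35 ± 0.27, limma adjusted p = 0.00764). A second, dimmer Col3a1 probe gave a log2 difference of 0.20, and the mean of both probes gave 0.78 (adjusted p = 0.024). Col1a1 and Col3a1 made up the 2 collagens whose sedentary groups did not overlap with SAMP8 higher, against 2.26% of all genes.

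**Figure D1:**
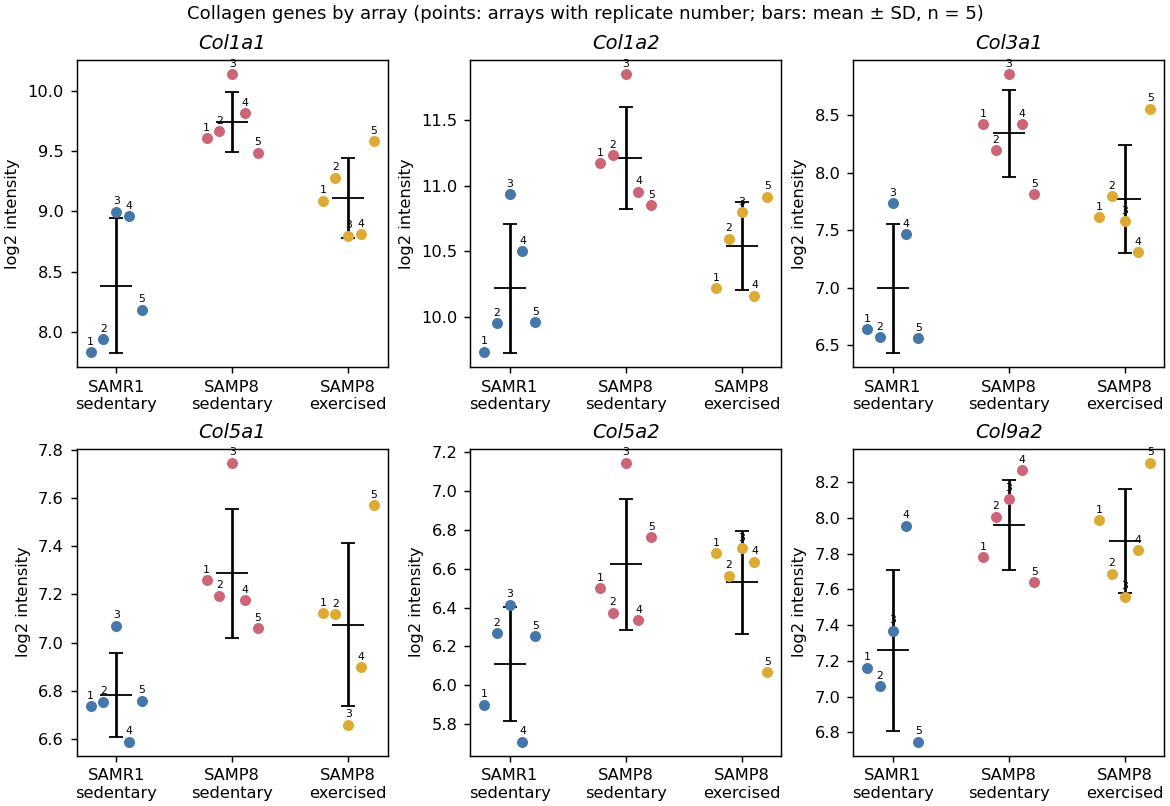
Log2 intensity (vertical axis) of 6 collagen genes on each array, by group (horizontal axis). Points are arrays labelled with their replicate number and bars are the mean ± SD of 5 arrays; for Col1a1 and Col3a1 every sedentary SAMP8 point lies above every SAMR1 point, and the mean of the exercised group lies between the means of the sedentary groups for all 6 genes.

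Sedentary arrays that carry the same number in both lines deviated alike across genes in 5 of 5 pairs, and the fit that pairs them called more collagens. With the replicate number as a block over the 10 sedentary arrays, 7 collagens were higher and none lower, beside 2.21% of all genes called higher in that fit. They were Col1a1 (adjusted p = 0.00185), Col3a1 (0.00116), Col1a2 (0.00727), Col9a2 (0.00867), Col5a1 (0.00968), Col13a1 (0.0219) and Col5a2 (0.0284), all limma. The paired differences of Col1a1 were 1.77, 1.71, 1.14, 0.85 and 1.30, those of Col3a1 1.78, 1.63, 1.12, 0.96 and 1.26, and those of Col1a2 1.43, 1.28, 0.91, 0.45 and 0.89. All 5 pairs were higher in SAMP8 for each of the 7 genes, which that same fit had picked. For the type I and III chains pair 4 had the smallest difference. All 5 pairs were also above 0 for the uncalled Col16a1, Col23a1, Col27a1, Col2a1 and Col5a3, and below 0 for Col8a2 and Col9a3. The share of all genes whose 5 pairs went one way was not computed.

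The type V chains, which join type I fibrils and limit their width, had smaller differences without a call in the unpaired fit. Col5a1 differed by 0.50 ± 0.16 (adjusted p = 0.13), Col5a2 by 0.51 ± 0.17 (0.179) and Col5a3 by 0.60 ± 0.20 (0.178). With the replicate block the standard errors of Col5a1 and Col5a2 were 0.07 and 0.10, and their paired differences were 0.52, 0.44, 0.68, 0.59 and 0.30 for Col5a1 and 0.60, 0.11, 0.73, 0.62 and 0.51 for Col5a2. A second, dimmer Col5a1 probe gave a difference of 0.06. SAMR1 replicate 1 of Col5a3 lay at the floor, and a second Col5a3 probe gave a difference of 0.00. Among the other fibrillar genes Col27a1 differed by 0.39 ± 0.13 (adjusted p = 0.171), the cartilage collagen Col2a1 by 0.21 ± 0.19 and Col11a1, a partner of type II fibrils, by 0.29 ± 0.39. Col24a1 lay at the floor on 9 of 15 arrays and differed by -0.03 ± 0.11. Of the 10 fibrillar genes, 9 differences were thus above 0, with a median of 0.51.

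Among the 8 basement membrane collagens none was called between the sedentary lines, and their median log2 difference was 0.06 with 5 above 0. Col4a1 and Col4a2, neighbours on chromosome 8 and the chains of the type IV network found in all basement membranes, had the lowest p-values of the class. Col4a1 had values of 7.85, 8.33, 8.80, 7.75 and 8.72 in SAMR1 and 8.68, 8.19, 8.78, 8.33 and 8.98 in sedentary SAMP8. Its groups overlapped widely, with a difference of 0.30 ± 0.20 (95% interval -0.12 to 0.72, adjusted p = 0.667). Col4a2 had values of 8.02, 8.91, 9.46, 8.28 and 8.96 in SAMR1 and 8.98, 8.68, 9.40, 9.03 and 9.16 in sedentary SAMP8. Its difference was 0.32 ± 0.24 (interval -0.18 to 0.82, adjusted p = 0.715). Both intervals hold 0 and also the differences of the type V chains described above, and this precision cannot tell these apart.

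The other type IV pairs are neighbours in the genome as well. Col4a3 (0.06 ± 0.17, 5 of 15 values at the floor) and Col4a4 (-0.01 ± 0.18) lie side by side on chromosome 1, and Col4a5 (-0.08 ± 0.15, 3 values at the floor) and Col4a6 (-0.24 ± 0.33) on chromosome X. The probes of Col4a6 disagreed, with -0.24, -0.18 and 0.61. Col15a1 (0.06 ± 0.12) and Col18a1 (0.16 ± 0.22), the chains whose ends yield restin and endostatin, completed the class. The pair of Col3a1 and Col5a2, also adjacent on chromosome 1, differed by 1.35 and 0.51. No tested gene lay between the members of these pairs. None of the 3 called collagens had a called gene among its 5 nearest tested genes on either side.

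Of the 8 fibril-associated collagens none was called in the unpaired fit, with a median difference of 0.19 and 5 above 0. Col9a2, a chain of type IX collagen best known from cartilage, came nearest, with 7.16, 7.06, 7.37, 7.96 and 6.75 in SAMR1 and 7.78, 8.01, 8.11, 8.27 and 7.64 in sedentary SAMP8. Only SAMR1 replicate 4 reached into the SAMP8 range, and the difference was 0.70 ± 0.20 (adjusted p = 0.0755, and 0.00867 with the replicate block). Col16a1 had 9.88, 9.63, 9.98, 9.55 and 10.17 in SAMR1 and 10.45, 9.92, 10.33, 10.21 and 10.17 in sedentary SAMP8. It differed by 0.37 ± 0.13 (adjusted p = 0.178), with overlapping groups. The remaining 6 ranged from -0.33 for Col9a3 through -0.24 for Col20a1, -0.18 for Col22a1, 0.18 for Col14a1 and 0.19 for Col19a1 to 0.26 for Col9a1.

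The beaded-filament and short-chain network class split. Col6a1, the alpha-1 chain of type VI, had 7.06, 7.34, 8.08, 6.82 and 7.59 in SAMR1 and 8.35, 7.59, 8.05, 7.99 and 8.27 in sedentary SAMP8, a difference of 0.67 ± 0.20 (adjusted p = 0.114). SAMR1 replicate 3 lay within the SAMP8 range and SAMR1 replicate 5 at its lower end. Its neighbour on chromosome 10, Col6a2, the alpha-2 chain, differed by 0.18 ± 0.20. Col6a6 had 4 SAMR1 values at the floor of 5.29 and 1 of 5.45, while sedentary SAMP8 had 5.78, 5.35, 5.71, 5.29 and 5.47. With 8 of its 15 values at the floor its difference of 0.20 ± 0.09 (adjusted p = 0.446) depends on that floor. Col26a1 (0.29), Col6a4 (-0.02) and Col10a1 (-0.03, 6 values at the floor) did not pass, and the class median was 0.08 with 4 of 8 above 0.

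Of the transmembrane and anchoring genes, Col23a1 had 7.01, 7.13, 7.40, 7.20 and 7.05 in SAMR1 and 8.08, 7.20, 7.76, 7.94 and 7.63 in sedentary SAMP8. Only SAMP8 replicate 2 fell into the SAMR1 range, and the difference was 0.56 ± 0.16 (adjusted p = 0.0934). Col13a1 had 6.21, 6.45, 7.03, 6.91 and 6.22 in SAMR1 and 6.86, 6.93, 7.37, 7.15 and 6.83 in sedentary SAMP8, a difference of 0.46 ± 0.17 (adjusted p = 0.239, and 0.0219 with the replicate block). A second, dimmer Col13a1 probe gave -0.13. Col7a1, of the anchoring fibrils under epithelia, differed by 0.16, the neuronal transmembrane collagen Col25a1 by -0.04 and the epithelial Col17a1 by -0.22, with 4 of its values at the floor.

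**Figure D2:**
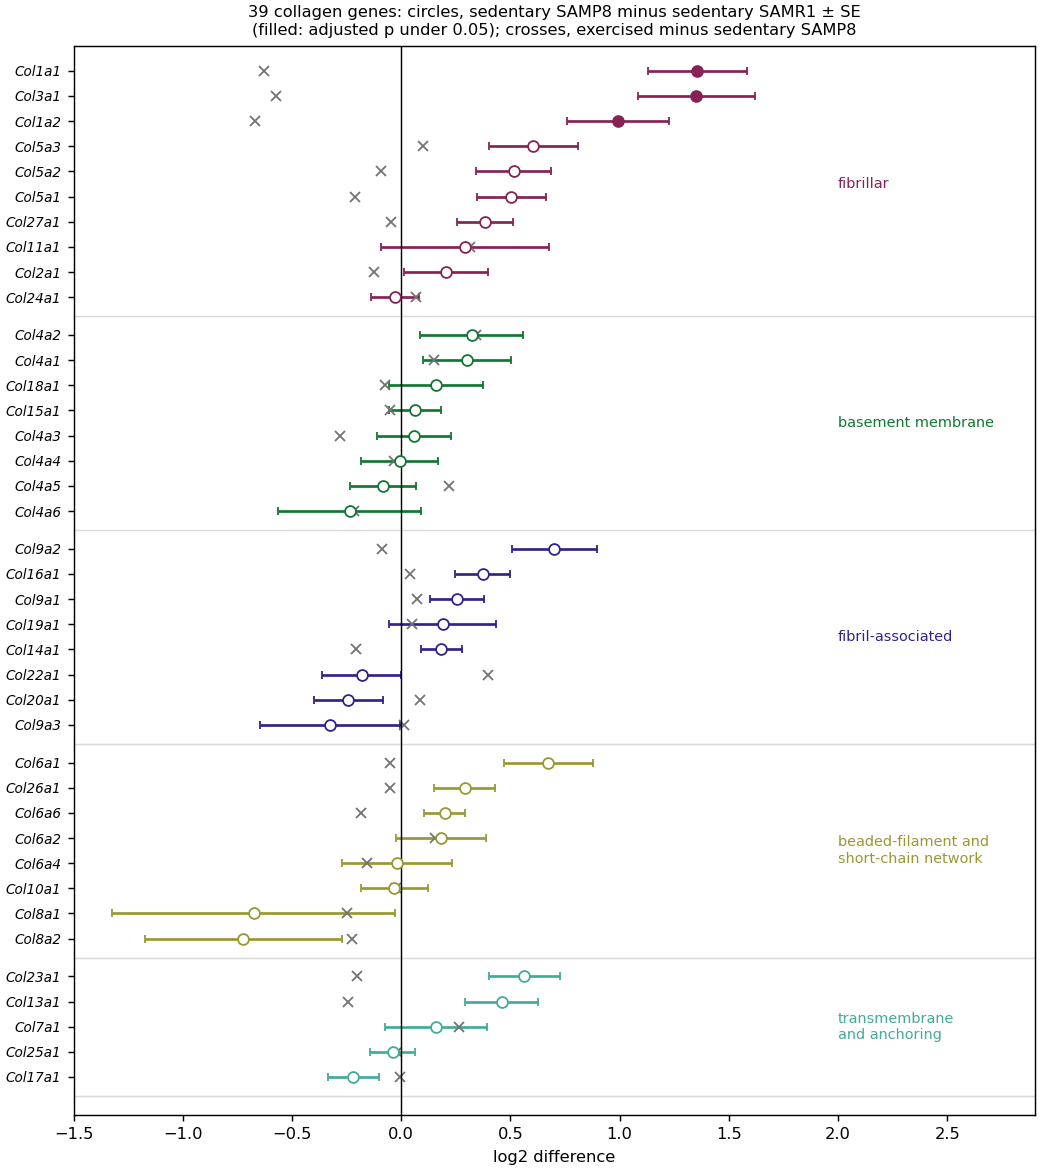
Log2 difference (horizontal axis) of each of the 39 collagen genes, ordered by class and size. Circles are sedentary SAMP8 minus sedentary SAMR1 ± SE, filled where the adjusted p was under 0.05, and crosses are exercised minus sedentary SAMP8; only Col1a1, Col3a1 and Col1a2 are filled, and their crosses lie left of 0.

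Markers of meninges and fibroblasts were higher too, and across arrays they went with the type I and III chains. The fibrillar Col5a2, Col5a3, Col11a1 and Col27a1 showed another order. They were lowest in SAMR1 replicates 1 and 4, and replicate 4 had a marker mean of 8.96. All 20 of these markers, none of them a collagen, had differences above 0 in sedentary SAMP8, with a median of 0.60. Called were 3, beside 1.46% of all genes called higher. They were the transcription factor Foxc1 (0.65 ± 0.14, limma adjusted p = 0.0147), Islr (0.60 ± 0.14, 0.0303) and the retinoic acid enzyme Aldh1a2 (1.57 ± 0.39, 0.0418). The calls were lost without single arrays: that of Foxc1 without SAMR1 replicate 1 (0.0502), that of Islr without array 1, 2 or 5 of SAMR1 or array 1 or 3 of sedentary SAMP8 (at most 0.0901), and that of Aldh1a2 without any array except SAMR1 replicates 3 and 4 and exercised replicates 4 and 5 (up to 0.128). The summed intensity of the 20 markers ranged from 10075 to 23245 in SAMR1, from 18935 to 33543 in sedentary SAMP8 and from 16235 to 27971 in exercised SAMP8. Bnc2 lay at the floor on 10 of 15 arrays and Tbx18 on 1. The mean of the 20 markers was 8.26, 8.25, 8.95, 8.96 and 8.001 in SAMR1, so the 2 arrays that were high for Col1a1 and Col3a1 were high here too, and 8.97, 9.18, 9.58, 9.21 and 8.83 in sedentary SAMP8.

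With that marker mean as a covariate, Col1a1 kept its call at a smaller difference (0.67 ± 0.14, limma adjusted p = 0.0242), beside 0.689% of all genes called higher. Col3a1 (0.52 ± 0.14, adjusted p = 0.124) and Col1a2 (0.39 ± 0.20, adjusted p = 0.599) lost theirs. Col9a2 and Col5a1 each stood at 0.17 with it (SE 0.16 and 0.17). Col5a2 (0.63 ± 0.23), Col5a3 (0.50 ± 0.27) and Col6a1 (0.62 ± 0.27) kept differences near those without it, with wider errors. The median of the 10 fibrillar genes was 0.45 with the covariate, 9 above 0. The covariate itself differs between the lines, and the part of meningeal tissue in the collagen result was not tested further. Markers of pericytes and smooth muscle were also higher, 6 of 15 called, beside 1.46% of all genes called higher, and 13 above 0. Their list means were 8.49 ± 0.24 in SAMR1, 8.93 ± 0.12 in sedentary SAMP8 and 8.87 ± 0.10 in exercised SAMP8. Rgs5, among those called (0.63), lies near Ddr2 on chromosome 1, where Uhmk1 (1.36) was called as well. None of 14 endothelial markers was called. The part of these cells in the result was not tested.

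**Figure D3:**
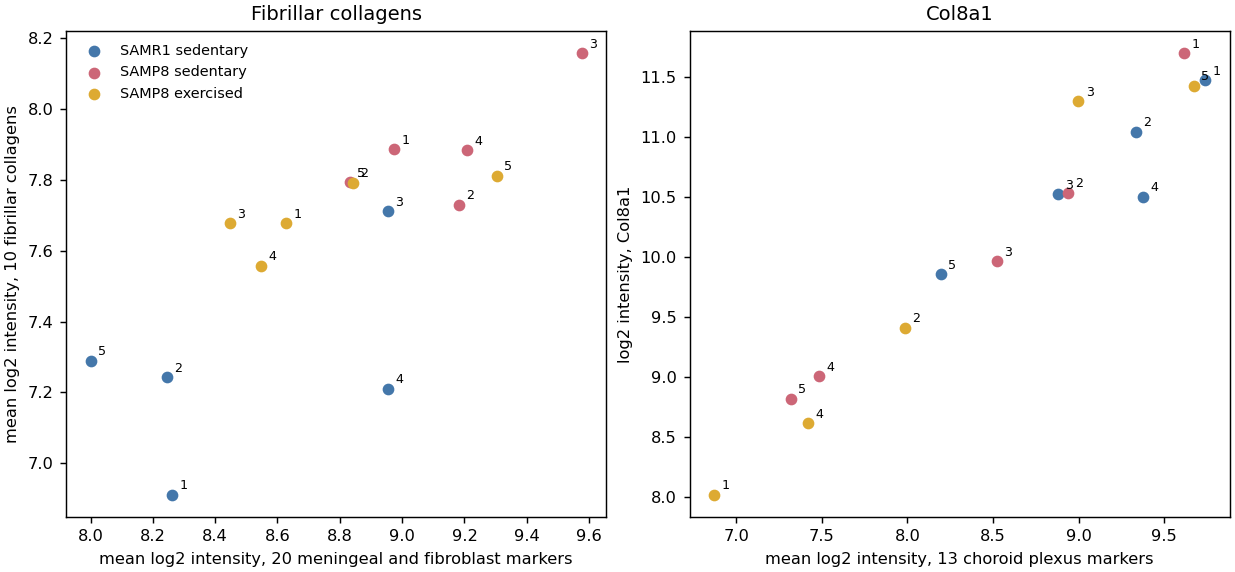
Left, mean log2 intensity of the 10 fibrillar collagens (vertical axis) against that of 20 meningeal and fibroblast markers (horizontal axis) on each array; right, log2 intensity of Col8a1 against the mean of 13 choroid plexus markers. Points are arrays labelled with their replicate number and coloured by group; SAMR1 replicate 4 has a marker mean of 8.96 with a fibrillar mean of 7.21, and Col8a1 rises with the choroid plexus markers in all 3 groups.

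Type VIII collagen, a short-chain collagen of endothelium and of the eye, spread widely within each group. It and Col9a3 were singled out after their values were seen. Col8a1 ran from 9.86 to 11.48 in SAMR1, from 8.82 to 11.70 in sedentary SAMP8 and from 8.02 to 11.43 in exercised SAMP8. Its difference between the sedentary lines was -0.68 ± 0.65 (adjusted p = 0.806), and that of Col8a2 was -0.72 ± 0.45 (adjusted p = 0.63). With the replicate block over the sedentary arrays the standard errors were smaller and none of these was called. Col8a1 stood at -0.68 ± 0.22 (limma adjusted p = 0.154), Col8a2 at -0.72 ± 0.19 (0.0899) and Col9a3 at -0.33 ± 0.12 (0.199). The mean of 13 choroid plexus markers, among them Ttr and Folr1, followed the same arrays. In sedentary SAMP8 it was 9.62, 8.94, 8.52, 7.48 and 7.32 while Col8a1 was 11.70, 10.54, 9.97, 9.005 and 8.82 and Col8a2 was 9.16, 8.34, 8.05, 7.54 and 6.92. In exercised SAMP8 the markers were at 6.87, 7.98, 8.999, 7.42 and 9.67 while Col8a1 was 8.02, 9.41, 11.30, 8.62 and 11.43. Both were low in exercised replicates 1 and 4 and high in replicates 3 and 5.

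The summed intensity of the choroid plexus markers ranged from 7482 to 23946 in SAMR1, from 3257 to 24013 in sedentary SAMP8 and from 2126 to 23105 in exercised SAMP8. Between the sedentary lines 11 of the 13 were below 0, with a median of -0.79 and none called. With their mean as a covariate the standard error of Col8a1 went from 0.65 to 0.17 and that of Col8a2 from 0.45 to 0.11, and the differences between the sedentary lines were 0.22 and -0.09. Col9a3 likewise went from -0.33 ± 0.32 to 0.11 ± 0.10. Col18a1, a basement membrane collagen, went from 0.16 ± 0.22 to 0.43 ± 0.11 (adjusted p = 0.0558). The called type I and III genes kept their calls with this covariate, Col1a1 at 1.39, Col3a1 at 1.503 and Col1a2 at 1.13.

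The comparison of exercised with sedentary SAMP8 asked what the exercise period changed within the line. None of the 39 collagens was called, and none of the 16401 genes was (0%, limma). At an unadjusted p under 0.05 stood 5 collagens, beside 3.49% of all genes. The 3 chains that were higher in sedentary SAMP8 were among these 5, all with differences below 0. Col1a2 was 10.22, 10.60, 10.80, 10.16 and 10.92 in exercised SAMP8, and all but replicate 5 lay below every sedentary SAMP8 array. Its difference was -0.67 ± 0.23 (95% interval -1.16 to -0.18, unadjusted p = 0.0105, adjusted p = 1). Col1a1 was 9.09, 9.28, 8.80, 8.81 and 9.58, and only replicate 5 lay inside the sedentary SAMP8 range. Its difference was -0.63 ± 0.23 (interval -1.11 to -0.15, unadjusted p = 0.0135). The 11 Col1a1 probes ran from -0.63 to -0.27 for exercise, so the probe used again gave the largest size.

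Col3a1 was 7.62, 7.80, 7.58, 7.31 and 8.56 in exercised SAMP8, a difference of -0.57 ± 0.27 (interval -1.14 to -0.01, unadjusted p = 0.0476), and again only replicate 5 lay inside the sedentary SAMP8 range. The second, dimmer Col3a1 probe gave -0.13 for exercise. Exercised replicate 5 was the highest of its group for all 3 chains and for the meningeal marker mean, which was 8.63, 8.84, 8.45, 8.55 and 9.30. All 20 of those markers had differences below 0 for exercise, with a median of -0.36 and none called. With that marker mean as a covariate the exercise differences were nearer 0, at -0.31 ± 0.17 for Col1a2 (unadjusted p = 0.0926), -0.22 ± 0.12 for Col1a1 (0.0893) and -0.075 ± 0.12 for Col3a1 (0.554), all limma. The other collagens past an unadjusted p of 0.05 were the fibril-associated Col14a1 (-0.21 ± 0.09, unadjusted p = 0.0418) and Col22a1 (0.40 ± 0.18, unadjusted p = 0.0423), the latter found at muscle-tendon junctions. The calls in the sedentary comparison and these differences share the sedentary SAMP8 arrays, so their opposite signs are not independent.

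By class, the median exercise difference was -0.11 for fibrillar, -0.04 for basement membrane, 0.04 for fibril-associated, -0.10 for beaded-filament and network and -0.02 for transmembrane collagens, against 0.01 for all genes. Of the 39 collagens 14 were above 0 and 25 below, with a median of -0.05, while 54% of all genes were above 0. In the basement membrane class Col4a2 differed by 0.34 ± 0.24, Col4a5 by 0.22 ± 0.15 and Col4a3 by -0.28 ± 0.17. Col4a1 was 8.90, 8.85, 8.79, 8.67 and 8.49 and Col4a2 9.20, 9.73, 9.71, 9.44 and 8.89 in exercised SAMP8, and replicate 5 was the lowest of its group for both, the opposite of its place for the type I and III chains. Col9a2 (-0.09), Col16a1 (0.04), Col23a1 (-0.20), Col13a1 (-0.24), Col6a1 (-0.05) and Col6a6 (-0.18) did not pass.

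The comparison of exercised SAMP8 with sedentary SAMR1 shares arrays with both others and is given for its own values. No collagen was called, while 3.6% of all genes were called (limma). At an unadjusted p under 0.05 stood 12 collagens, beside 15.9% of all genes. Of the 39 differences 27 were above 0, with a median of 0.22, and all 10 fibrillar genes were above 0 with a median of 0.38. Col1a1 differed by 0.73 ± 0.23 (adjusted p = 0.0993), Col3a1 by 0.78 ± 0.27 (0.141) and Col1a2 by 0.32 ± 0.23 (0.568). Col5a3 differed by 0.70 ± 0.20 (adjusted p = 0.0707) and was the 1 collagen whose groups did not overlap, beside 2.44% of all genes with exercised SAMP8 higher. Its values were 5.29, 6.43, 6.59, 6.0 and 6.31 in SAMR1 and 6.68, 7.39, 6.61, 6.78 and 6.68 in exercised SAMP8, so the lowest exercised array stood just above the highest SAMR1 array. The SAMR1 value of 5.29 lay at the floor, and the second, dimmer Col5a3 probe differed by -0.12 here. A single gene among the 39 is close to the share over all genes, so this is not a result about the collagens.

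Col4a2 differed by 0.66 ± 0.24 (adjusted p = 0.157), Col6a1 by 0.62 ± 0.20 (0.118), Col9a2 by 0.61 ± 0.20 (0.106) and Col16a1 by 0.41 ± 0.13 (0.0908). Single SAMR1 arrays decided whether any collagen passed. Of the 20 meningeal and fibroblast markers 14 were above 0 in this comparison, with a median of 0.22 and none called. Without SAMR1 replicate 3 there were 4 called collagens (Col1a1, Col4a2, Col5a3 and Col6a1), beside 3.12% of all genes called in that fit. Without replicate 4 there were 2 (Col1a1 and Col9a2), beside 3.02%, and without replicate 5 there was 1 (Col16a1), beside 3.32%. With the meningeal and fibroblast marker mean as a covariate there was 1, Col1a1 (0.45, adjusted p = 0.0430), beside 3.2% of all genes called.

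**Figure D4:**
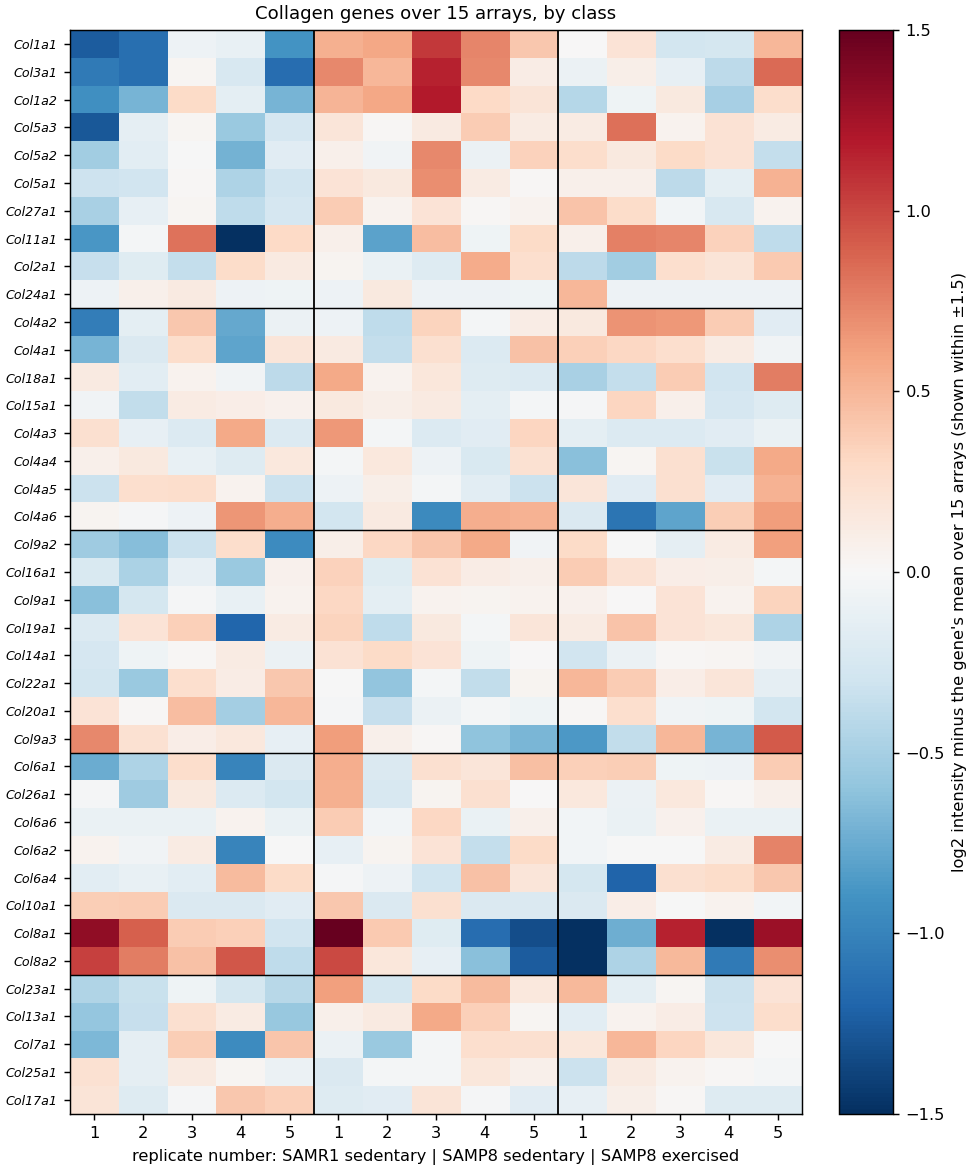
Log2 intensity of the 39 collagen genes (rows, by class) on 15 arrays (columns, by group and replicate number) minus each gene's mean over the arrays, with colours limited to 1.5 units either way. The type I and III rows are lowest in SAMR1 replicates 1, 2 and 5 and highest in sedentary SAMP8 replicate 3, and the Col8a1 and Col8a2 rows swing within every group.

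Genes that act on collagen differed one by one. For every list below, the share over all genes between the sedentary lines was 1.46% called higher and 2.63% called in either direction. A single call in a list is not a result about that list. Ddr2, a receptor tyrosine kinase switched on by fibrillar collagen, was higher in sedentary SAMP8 (9.13 ± 0.20 against 7.54 ± 0.28, SD, n = 5 each), a log2 difference of 1.58 ± 0.17 (limma adjusted p = 2.4e-05) that was 1.39 in exercised SAMP8 against SAMR1. It kept its call under every alternative run, leaving out any 1 array included. Its near neighbours on chromosome 1, Rgs5, 3110045C21Rik and Uhmk1, were called as well. Mrc2, an endocytic receptor that clears collagen fragments, was higher (0.63 ± 0.14, adjusted p = 0.0229), but not with the mean of its probes (0.21, adjusted p = 0.349), nor when array 1 or 5 of SAMR1 or array 2 or 3 of sedentary SAMP8 was left out (at most 0.0735). Of the 8 collagen receptors 2 were higher, none lower and 6 did not pass, with a median of 0.09.

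Among 27 genes of collagen synthesis and processing, which modify, fold, trim and crosslink the chains, 1 was lower and 26 did not pass, with a median of 0.09. It was P3h2, a prolyl 3-hydroxylase acting on type IV collagen among others, at 6.06 ± 0.13 against 6.81 ± 0.13 (log2 difference -0.75 ± 0.12, adjusted p = 0.00119). Among 10 genes of collagen breakdown, 1 was lower and 9 did not pass, with a median of -0.06. It was Timp3, a matrix-bound inhibitor of metalloproteinases, at 11.60 ± 0.14 against 12.34 ± 0.25 (-0.73 ± 0.13, adjusted p = 0.0022). P3h2 and Timp3 kept their calls under every alternative that held a value for them. P3h2, among the dimmest 40% of genes, had no value with that filter. Neither gene had a called neighbour.

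Among 13 basement membrane partners of type IV collagen 1 was higher, 1 lower and 11 did not pass, with a median of 0.02. Nid1, the nidogen that links laminin to type IV collagen, was higher (0.88 ± 0.18, adjusted p = 0.0123), and 3 of its neighbours on chromosome 13 were called. The laminin chain gene Lama2, whose neighbour Ptprk was called as well (0.44), was lower (-0.51 ± 0.11, limma adjusted p = 0.0203). Its call ended when array 3 or 5 of SAMR1 or array 4 or 5 of sedentary SAMP8 was left out (at most 0.0603). Of 15 genes of TGF-beta signalling, a pathway known to raise collagen transcription, 1 was higher and 14 did not pass, with a median of 0.04. It was Ccn2, a matricellular growth factor and known TGF-beta target (1.32 ± 0.22, limma adjusted p = 0.00183). A neighbour of Ccn2 on chromosome 10, Moxd1, was called as well (-0.82). With the meningeal marker mean as a covariate Ccn2 stood at 1.08 (adjusted p = 0.0937), Nid1 at 0.47 (0.419), Lama2 at -0.60 (0.0647) and Mrc2 at 0.31 (0.538), none of them called.

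None of 13 fibril-binding matrix proteins was called in the sedentary comparison, with 11 above 0 and a median of 0.24. The nearest were the small proteoglycans Dcn (0.72 ± 0.21, adjusted p = 0.0995) and Fmod (1.27 ± 0.39, 0.128), which also belong to the meningeal and fibroblast markers, and the fibronectin gene Fn1 (0.47 ± 0.16, 0.181). Lum, Bgn and Ogn belong to both lists as well, so the counts of these lists are in part counts of the same genes. For exercise no gene of any of these lists was called, and 2 of the 13 fibril-binding genes were above 0, with a median of -0.28. Against SAMR1, where 3.6% of all genes were called, exercised SAMP8 had Ddr2 and Itga11 higher and Itga1 lower among the receptors. The synthesis genes Colgalt1 and Loxl1 were higher and P3h2 and P3h4 lower, and Timp3, Lama2, Nid1 and Ccn2 were called in the same direction as in the sedentary comparison, with which these calls share the SAMR1 arrays. Several of these calls were lost without single arrays (adjusted p up to 0.135). Those were Ccn2 without any array except SAMR1 replicate 3 and exercised replicate 2, Itga11 without any except SAMR1 replicate 3, sedentary SAMP8 replicate 3 and exercised replicate 5, and Nid1 without any except SAMR1 replicates 3 and 4, sedentary SAMP8 replicate 4 and exercised replicate 4. Colgalt1 lost its call without any SAMR1 array or exercised replicate 2, 3, 4 or 5. The call of Loxl1 ended without array 1, 2 or 5 of SAMR1, array 2 of sedentary SAMP8 or array 1, 3 or 5 of exercised SAMP8. Itga1, with a difference of -0.67, stood at -0.17 with the mean of its probes and had no call there (adjusted p = 0.241). Itga11, Nid1, Ccn2, Colgalt1 and Loxl1 also lost their calls with the meningeal marker mean as a covariate (adjusted p from 0.0660 for Colgalt1 to 0.113 for Ccn2). Between the sedentary lines, called neighbours stood beside Itga11 (Anp32a, 0.67), Itga1 (Parp8, -0.64, and Emb, -1.36) and Loxl1 (Islr, 0.60).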

How the data were processed

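The deposited table holds 1 intensity column per array, and the authors' scale is linear, with values from 4.02 to 65480. The submitters' processing notes name limma, and the sources used here do not give a background step. The sorted columns are nearly equal, as after quantile normalization. Of 45220 features 10741 (23.8%) had no value on any array. Features were named through the platform annotation of GEO: 27968 of the 34479 with values had 1 symbol, 38 had several and 6473 were not listed. Each of the 16401 named genes is represented by its brightest probe by mean (6970 genes had several). Annotated but without values here were Col12a1 and Col28a1, so 39 of 41 collagen symbols could be used. Col6a3, Col6a5 and Col21a1 were not analysed here, since no probe in the annotation used carries those symbols.

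Intensities under the 5th percentile (39.17, log2 5.29) were raised to it, 3.54% to 4.26% of gene values per array, and log2 was taken of the deposited values. Group differences come from limma (version 3.58.1, under R version 4.3.3) by lmFit and eBayes on all 15 arrays with 1 term per group, two-sided, with Benjamini-Hochberg adjustment over all 16401 genes and calls at an adjusted p under 0.05. Differences are given ± SE of the fit, levels ± SD. The fit was tested on simulated data. No pair of arrays shared over 0.125% of identical values.

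Replicate numbers were checked for pairing by the correlation, across genes, of deviations from the group means. It was 0.27, 0.23, 0.38, 0.52 and 0.42 for same-numbered sedentary arrays, where the numbers were read as pairs. The labels do not say what the number marks, so the main fit took no pairs and the replicate block was an alternative. The correlation was -0.10 to 0.35 for exercised against sedentary SAMP8 and 0.01 to 0.37 for exercised SAMP8 against SAMR1. In these the numbers were not read as pairs.

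Values per array are given for each called collagen and for the 2 of each class with the lowest p between the sedentary lines. In companion lists the called members and the 3 with the lowest p may be named. The collagens, their classes and all lists were chosen with earlier results of these data known, so no list was tested as a set. Alternatives were the floor, a filter on the dimmest 40% of genes, the mean of all probes, cyclic loess, only the compared groups, a variance trend with a robust prior, array weights, replicate blocks, marker means as covariates and leaving out each array. The count of protein repeats that was planned was not run. The promoter windows and gene order come from RefSeq (GRCm38.p6).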

Additional observations from a re-analysis of the deposited data

Results flagged for a closer look

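Of 117 groups of 5 arrays, 9 had a lowest or highest array whose gap to the nearest other array was over 0.71 of the group's range, and chance flags about 1 in 20 groups. Col5a1 was highest in sedentary SAMP8 replicate 3 (log2 intensity 7.75, nearest array 7.26), the array that was also highest of its group for Col1a1, Col1a2 and Col3a1. In exercised SAMP8, replicate 5 was lowest for Col5a2 (6.07, nearest 6.57) and highest for Col6a2 (7.25, nearest 6.64), and replicate 2 was highest for Col5a3 (7.39, nearest 6.78). Col6a2 was lowest in SAMR1 replicate 4 (5.53, nearest 6.47), and Col20a1 was lowest in sedentary SAMP8 replicate 2 (6.45, nearest 6.72). The others lay beside values at or near the floor of 5.29. They were Col24a1 in sedentary SAMP8 replicate 2 (5.52) and in exercised replicate 1 (5.87), and Col6a6 in SAMR1 replicate 4 (5.45).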

How the results depend on the processing

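Between the sedentary lines the 3 called collagens became 7 with the replicate block over the 10 paired sedentary arrays and 1 (Col1a1) with the meningeal and fibroblast marker mean as a covariate. Leaving out each array gave 2 to 4, and the other alternatives stayed within 1.5 times. Col1a1 kept its call under each alternative run. Col3a1 lost it with the meningeal covariate (0.52, adjusted p = 0.124) and, among the dimmest 40% of genes, had no value with that filter. For exercise the count was 0 under every alternative, leaving out each array included (0 to 0). Exercised SAMP8 against SAMR1 gave 1 with the meningeal covariate (Col1a1) and 0 to 4 when each array was left out. The all-gene count between the sedentary lines was 431, 648 with that block and 230 with that covariate. With the meningeal covariate the sign changed in 5 of the 39 collagens between the sedentary lines, 9 for exercise and 2 for exercised SAMP8 against SAMR1, and with the choroid plexus covariate in 6, 2 and 6. Array weights changed 5, 5 and 0 and the mean of all probes 3, 6 and 2. None of the 3 called collagens was among these. Of the 11 collagens with values per array, those that changed sign were Col13a1 between the sedentary lines (-0.00998 with the meningeal covariate) and, for exercise with that covariate, Col9a2 (0.23), Col16a1 (-0.0308) and Col13a1 (0.0380), besides Col6a1, Col16a1 and Col6a6 as follows. Col6a1 for exercise was 0.0276 with array weights and ran from -0.165 to 0.0245 as each array was left out, above 0 without sedentary SAMP8 array 1 or 5 or exercised array 3 or 4. Col16a1 for exercise ran from -0.0362 to 0.0956, below 0 without sedentary SAMP8 array 2 or exercised array 1. Col6a6 in exercised SAMP8 against SAMR1 ran from -0.0155 to 0.0459, below 0 without exercised array 3. The block over all 15 arrays called 3 collagens between the sedentary lines, and it changed no other count of collagens. With a block over the compared groups P3h4 lost its call in exercised SAMP8 against SAMR1 (adjusted p = 0.0586). The causes of these changes were not tested. Signal near the floor limits Col24a1, Col6a6, Col10a1 and Col4a3 most.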

Other observations

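SAMR1 replicates 1 and 4 were the 2 lowest of all 15 arrays in 8 of the 39 collagens (20.5%), against 3.33% of the 16401 genes. The 8 were Col4a1 and Col4a2 of the capillary basement membrane, the fibrillar Col5a2, Col5a3, Col11a1 and Col27a1, Col6a1 of the beaded filaments and Col7a1. Col11a1, for instance, was 8.37 and 7.54 on these arrays and 9.21, 10.06 and 9.54 on the other SAMR1 arrays. Col7a1 was 7.57 and 7.31 on them and 8.11, 8.62 and 8.66 on the others. The type I and III chains showed another order, with SAMR1 replicates 1, 2 and 5 lowest and replicates 3 and 4 higher. This pattern was noticed in the values, its members were chosen after they were seen, and no test was made of it.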
